A study of Mus musculus with 32 samples.

Results

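Lamp2, Atp6ap1, Atp6ap2, Gla and Ids are X-linked genes for proteins of the lysosome and its proton pump. They were chosen by name and function, with earlier results of these data known. The deposited tables list 1006 X-linked genes, all 5 among them. All 5 also passed the filter on low values in each of the 4 tables, which required Xa plus Xi FPKM to average 1 or more over the columns of a table. FPKM is a measure of sequenced fragments that accounts for the length of the transcript and the size of the library. Xa and Xi are the active and the inactive X chromosome.

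The study measured polyadenylated RNA by Smart-seq2 in 32 samples of mouse XEN cells, an extraembryonic endoderm stem cell line from a cross labelled 129S1/SvImj X JF1/Ms. Parental sequence differences allow reads to be assigned to an allele. The samples fell into 12 groups, and the deposited tables gave 1 merged column for each group and allele. Every difference therefore had no replicate check, and no p-value is given.

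The groups were WT with 3 samples, XistpA with 4, XRR_KO with 2 samples from 2 clones and XRRa_KO with 3. XRRb_XaKO, XRRb_XiKO, XRRc_XaKO and XRRc_XiKO had 2 samples each, and no clone is named for them. Rad21-degron cells were treated with DMSO or dTAG, with 4 samples from 2 clones in each group. Ctcf-degron cells were treated with DMSO or dTAG for 48 h, with 2 samples in each group. A degron is a tag on a protein that lets dTAG, a small molecule, direct that protein to degradation, and DMSO is the solvent control. The labels do not spell out XistpA, XRR, XaKO or XiKO, or the length of the Rad21 treatment. The merged columns do not show whether the samples or clones of a group were alike.

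WT, XistpA, XRR_KO and XRRa_KO were given in 1 table, the XRRb and XRRc groups in another, and the Rad21 and Ctcf groups in 1 table each. Because each table was normalised separately, levels were compared within a table and shares of Xi across tables. Of 14 marker genes chosen for XEN, pluripotent and trophoblast cells and for an inactive X, the tables list only Xist, so the cell type label could not be checked from them. Xist, the RNA that coats and silences the inactive X, had an Xi level of 15.5 FPKM in WT, was listed at 0 in XistpA, and was 1.18 in XRR_KO and 7.86 in XRRa_KO. Its Xi level was 6.72 to 10.9 FPKM in the XRRb and XRRc groups and 18.6 to 35.6 in the degron groups.

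Lysosomes are acidic compartments that break down material taken up by endocytosis or delivered by autophagy. Their acidity comes from the V-ATPase, a rotary pump that moves protons across the membrane at the expense of ATP. Extraembryonic endoderm is known for intense endocytosis and for large lysosomes. In female mammals most genes of 1 X chromosome are silenced in each cell, and genes that stay active on it are said to escape. LAMP2 is a heavily glycosylated lysosomal membrane protein needed in autophagy, and its human gene is mutated in Danon disease. ATP6AP1 and ATP6AP2, the latter also known as the prorenin receptor, are accessory subunits of the V-ATPase. GLA is alpha-galactosidase A, which removes galactose from glycolipids and is deficient in Fabry disease. IDS is iduronate sulfatase, which acts on heparan and dermatan sulfate and is deficient in Hunter syndrome.

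Promoter sequence is shown for the genes whose levels are described most closely below: Lamp2, the gene with the highest Xi share of the 5, and Atp6ap1 and Atp6ap2, the proton pump pair. The windows are the 250 bases before the RefSeq start of each gene in GRCm38.p6, read 5′ to 3′ on the strand of the gene. RefSeq held a window for all 5 genes. The full RefSeq windows of Lamp2 and of LOC115489130, on the same strand, also run past the start and shared 82 bases. Capitals mark CCAAT, or ATTGG where it lies on the other strand, and no window of these 3 genes held CACGTG. Lamp2 lies on the minus strand at chrX:38456461-38456710, Atp6ap1 on the plus strand at chrX:74296847-74297096, and Atp6ap2 on the plus strand at chrX:12587509-12587758.
Lamp2: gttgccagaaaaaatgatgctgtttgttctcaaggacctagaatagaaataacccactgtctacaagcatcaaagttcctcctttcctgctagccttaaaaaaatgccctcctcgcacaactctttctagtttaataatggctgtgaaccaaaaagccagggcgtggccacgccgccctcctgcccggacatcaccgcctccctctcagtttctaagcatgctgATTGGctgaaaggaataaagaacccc
Atp6ap1: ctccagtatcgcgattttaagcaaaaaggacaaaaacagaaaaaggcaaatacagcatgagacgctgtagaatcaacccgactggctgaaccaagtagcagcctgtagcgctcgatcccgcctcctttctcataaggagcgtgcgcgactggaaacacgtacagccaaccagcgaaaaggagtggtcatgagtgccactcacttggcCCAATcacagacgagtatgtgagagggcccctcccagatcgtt
Atp6ap2: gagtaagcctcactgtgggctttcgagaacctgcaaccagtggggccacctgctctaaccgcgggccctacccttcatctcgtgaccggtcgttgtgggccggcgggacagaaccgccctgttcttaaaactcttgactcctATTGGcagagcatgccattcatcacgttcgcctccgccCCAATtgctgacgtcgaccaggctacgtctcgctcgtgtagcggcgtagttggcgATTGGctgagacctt

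Gla is shown because its start faces that of Hnrnph2, whose Xi level is described with it below. The 173 bases between both RefSeq starts, at chrX:134601006-134601178, are printed on the minus strand, which is the strand of Gla, with CCAAT and its reverse complement in capitals.
Gla to Hnrnph2: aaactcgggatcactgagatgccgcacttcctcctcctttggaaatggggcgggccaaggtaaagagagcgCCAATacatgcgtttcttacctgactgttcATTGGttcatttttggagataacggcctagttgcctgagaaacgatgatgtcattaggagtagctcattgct
Farther from Gla, on the other side of the Hnrnph2 start, lay the only matches to CACGTG in the 5 windows. This is the core letters of the E-box read by TFEB and TFE3, transcription factors known to act on many lysosomal genes. The matches began 227 and 194 bases before the Gla start. They are given with 7 bases on either side, on the minus strand, at chrX:134601220-134601239 and chrX:134601187-134601206, with the core in capitals.
Gla E-box 1: gattgatCACGTGagcatct
Gla E-box 2: tctcggtCACGTGagcaact

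Both strands were searched. Both cores of Gla lay inside the longer form TCACGTGA, and the second also held GTCACGTG, so these matches overlap each other. Of 32851 promoter windows of the same length, 6.02% held CACGTG, 0.785% held TCACGTGA, 1.85% held GTCACGTG and 33.8% held CCAAT. The last of these motifs was found 1 time in Lamp2, 1 time in Atp6ap1, 3 times in Atp6ap2 and 2 times in Gla, and the Ids window held neither CCAAT nor CACGTG. The CCAAT motif was added after the sequences were seen. The Atp6ap2 window had 59.2% G and C and 20 CpG pairs, against 47.6% and 6 in Lamp2 and a median of 52.4% and 6 over all windows. The other windows held 51.6% and 14 in Atp6ap1, 48.8% and 14 in Gla and 50.4% and 9 in Ids. A match is a string of letters and was not measured as a binding site.

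On the active X, the proton pump subunits had the highest levels of the 5 in 11 of the 12 groups, and Ids had the lowest in all 12. These FPKM are scaled by length. They may also depend on how many parental differences a gene carries, since the assignment of reads to alleles is not described, so the order of different genes is that of the deposited values. In WT the Xa level was 107 FPKM for Atp6ap2, 94.4 for Atp6ap1, 44.1 for Lamp2, 11.0 for Gla and 1.11 for Ids. Among 270 tested genes, ordered from the highest Xa level in WT, they stood in places 25, 27, 53, 115 and 259. The order Atp6ap2, Atp6ap1, Lamp2, Gla, Ids was the same in 9 of the 12 groups. Atp6ap1 stood first in both Ctcf groups, and Lamp2 stood between Atp6ap2 and Atp6ap1 in Rad21_dTAG. With 1 value per group, the spread that would tell neighbours in this order apart was not measured. Atp6ap2 and Atp6ap1 were close to each other, with an Xa ratio of 1.13 in WT and 1.03 in XistpA. In Rad21_dTAG the Xa ratio of Lamp2 to Atp6ap2 was 0.998.

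**Figure D1:**
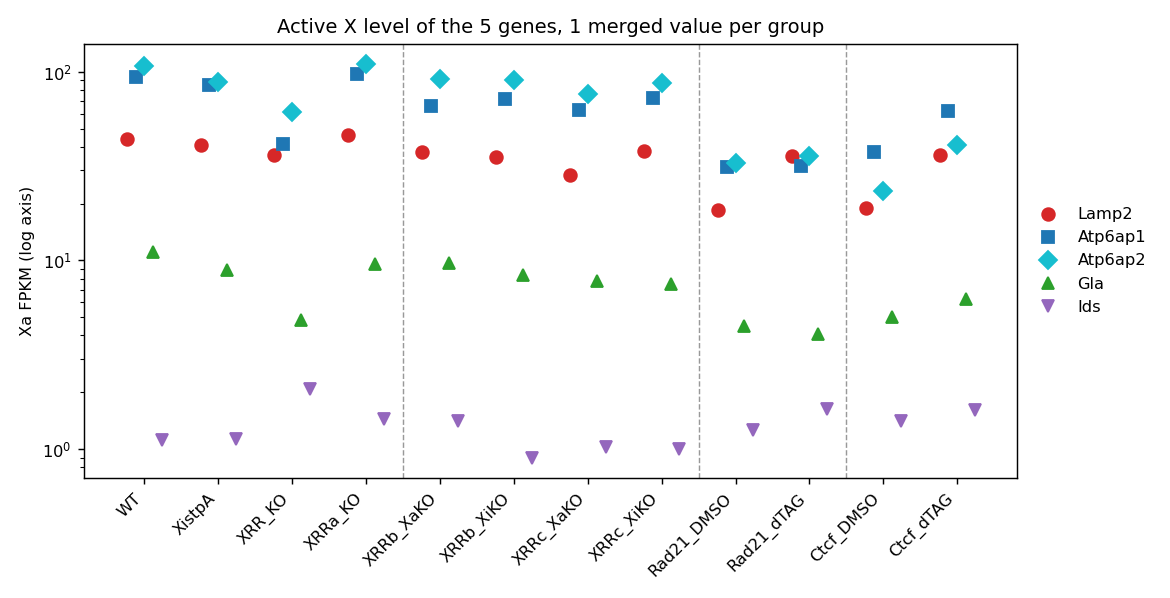
Xa level of the 5 genes in FPKM on a log axis, with 1 merged value for each of the 12 groups and no error bars because replicates were merged. Dashed lines separate tables, between which levels are not compared. The plot shows Atp6ap1 lower in XRR_KO, at 41.5, than in WT, at 94.4, and Lamp2 at 35.8 with dTAG against 18.6 with DMSO in the Rad21 cells.

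On the inactive X, the 5 genes were close to silent in most groups. Of 60 pairs of a gene and a group, 43 were listed at 0 on Xi and 17 were above 0. In 5 pairs the Xi share, which is the Xi level in percent of Xa plus Xi FPKM, was 1% or more. In 1 pair, Lamp2 in XRR_KO, it was 10% or more. In WT, 12.2% of the 270 tested genes had a share of 10% or more and 65.9% had an Xi level of 0. In XRR_KO these values were 21.5% and 45.6%, in XistpA 20.4% and 47.4%, and in XRRa_KO 15.9% and 58.5%. An Xi level of 0 was listed for 64.4% to 67.4% of tested genes in the XRRb and XRRc groups. In the degron groups it was listed for 75.8% to 80.2%. A listed 0 on Xi was thus common among all tested genes and does not set the 5 apart. How many of all tested genes had a share of 1% or more was not counted. In a bulk sample, a low Xi level in every cell and a high Xi level in a few cells cannot be told apart. A value of 0 can also be a failed estimate, and the sequencing depth behind the columns is unknown.

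**Figure D2:**
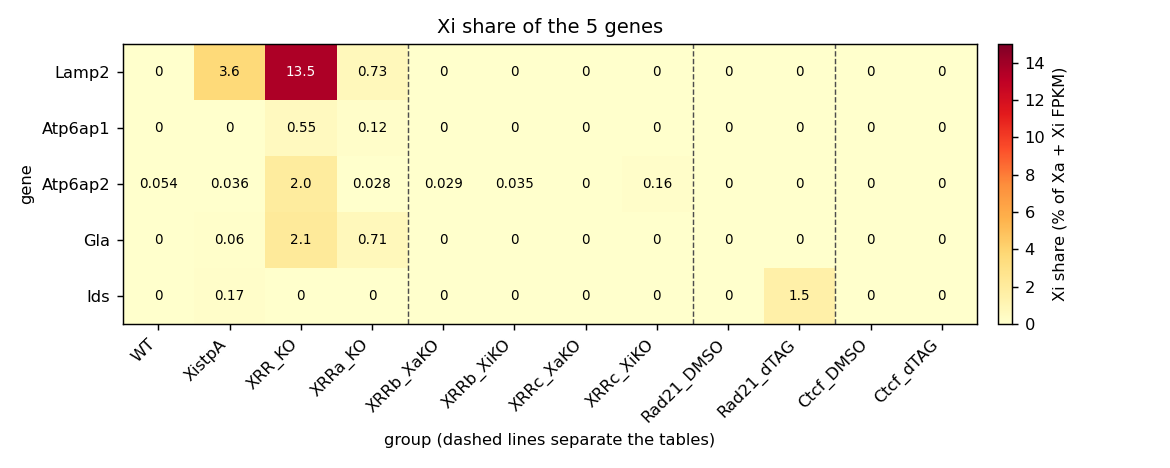
Xi share of the 5 genes (rows) in the 12 groups (columns), in percent of Xa plus Xi FPKM, with the value written in each field and dashed lines between tables. Lamp2 in XRR_KO stands out at 13.5%, followed by Lamp2 in XistpA at 3.59%, and most fields are 0.

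Changes are differences of log2(FPKM + 0.5), a scale that understates the change of low genes, and a change of 1 or more in size is the rule for "rose" and "fell". This rule is a size and not a test. XistpA, XRR_KO and XRRa_KO were all compared with the same WT column, so their changes are not independent of each other.

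Lamp2, the lysosomal membrane protein, was the member with the most RNA from the inactive X. Its Xi level was listed at 0 in WT and was 1.53 FPKM in XistpA, 5.70 in XRR_KO and 0.339 in XRRa_KO. Its Xi share was thus 3.59% in XistpA, 13.5% in XRR_KO and 0.726% in XRRa_KO. In the other 9 groups, WT among them, Lamp2 was listed at 0 on Xi. Lamp2 rose on Xi in XistpA and in XRR_KO, and in XRRa_KO its change of 0.75 stayed under the size rule. From the highest, its Xi change stood in place 19 of 270 tested genes in XistpA and in place 8 in XRR_KO. Of the tested genes 12.2% rose on Xi in XistpA and 15.9% in XRR_KO. The count of members was 1 of 5 and 2 of 5. The Xist level was lower in XistpA, where it was listed at 0, than in XRR_KO, while the Lamp2 Xi share was 3.59% against 13.5%. Whether Xist has a part in these values was not tested.

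On the log2 scale the Xa change of Lamp2 was -0.10 in XistpA, -0.27 in XRR_KO and 0.07 in XRRa_KO, all under the size rule. Its Xa level was 44.1 FPKM in WT, 41.1 in XistpA, 36.4 in XRR_KO and 46.3 in XRRa_KO. In the XRRb and XRRc table it was 37.8 in XRRb_XaKO, 35.4 in XRRb_XiKO, 28.3 in XRRc_XaKO and 37.8 in XRRc_XiKO. The 28.3 of XRRc_XaKO was the lowest of that table, and the Xa change of XRRc_XiKO against it was 0.41, place 12 of 261. In the degron cells Lamp2 stood at 18.6 FPKM with DMSO and 35.8 with dTAG for Rad21, and at 19.0 and 36.4 for Ctcf. Its Xa change was 0.93 and 0.92, both just under the size rule. These changes stood in place 18 of 247 genes and place 19 of 277 genes. In both degron lines the Xi level of Lamp2 was listed at 0 with and without dTAG.

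The Rad21 value depended on scaling. When columns were scaled to equal median Xa FPKM, the Lamp2 change was 1.33 in the Rad21 cells and 0.66 in the Ctcf cells, so that Lamp2 rose by the size rule in the Rad21 cells. Centred on the median Xa change, an alternative chosen after seeing the data, the Rad21 change was 1.18. Scaling to equal median Xa FPKM, and not the centring, moved the median Xa change of all tested genes as follows. The move was 0.36 in the Rad21 comparison and -0.25 in the Ctcf comparison. It was 0.14 in XRR_KO and 0.13 in XRRb, and less than 0.1 in size in the other 3 comparisons.

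**Figure D3:**
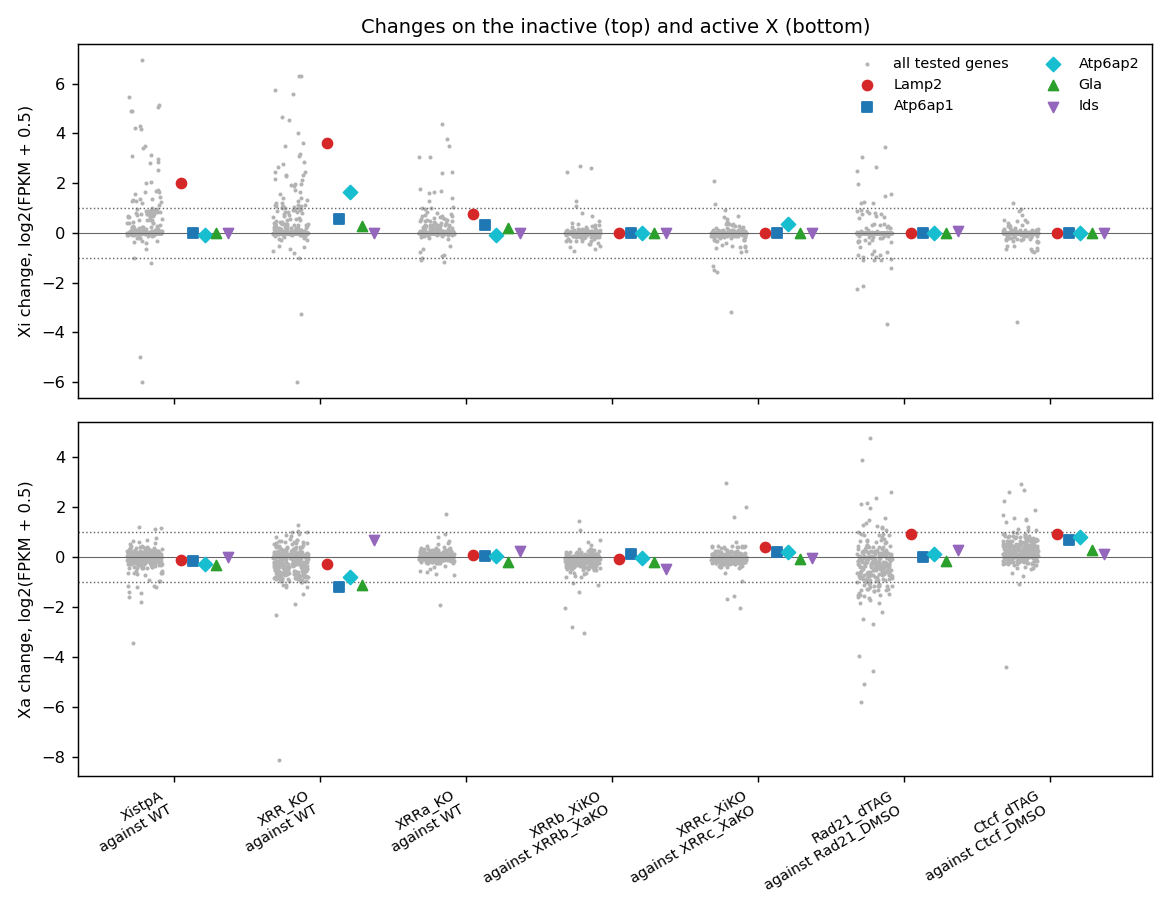
Change in log2(FPKM + 0.5) on Xi (top) and Xa (bottom) for the 7 comparisons, with grey points for all tested genes and coloured symbols for the 5 genes. Dotted lines mark a change of 1 in either direction. Lamp2 on Xi lies above the line in XistpA and XRR_KO, Atp6ap2 on Xi in XRR_KO, and Atp6ap1 and Gla on Xa lie below it in XRR_KO.

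Atp6ap1, the accessory subunit also called Ac45, was lower on the active X in XRR_KO. Its Xa level was 94.4 FPKM in WT, 85.1 in XistpA, 41.5 in XRR_KO and 97.4 in XRRa_KO. XRR_KO was thus the low group, and the other 3 lay between 85.1 and 97.4. Atp6ap1 fell by 1.18 on the log2 scale, the 6th lowest Xa change of 270 genes. Centred on the median Xa change the value was -0.99, which ended the call. In that comparison 3.7% of tested genes fell on Xa and 1.11% rose. Some neighbours along the X had Xa changes of like size there, and Fam50a, near Atp6ap1, had a change of 0.01. Lage3, near Atp6ap1, fell from 76.7 to 38.0 FPKM, and Taz went from 9.12 to 4.80, a change of -0.86. Timm8a1, near Gla, fell from 160 to 79.4 FPKM, a change of -1.01. On Xi Atp6ap1 was listed at 0 in 10 groups and had 0.230 FPKM in XRR_KO and 0.116 in XRRa_KO, shares of 0.551% and 0.119%. The fall on Xa was therefore not matched by a similar amount of Xi RNA.

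In the XRRb and XRRc groups Atp6ap1 had Xa levels of 65.6 FPKM in XRRb_XaKO, 71.4 in XRRb_XiKO, 63.0 in XRRc_XaKO and 72.7 in XRRc_XiKO. Both XiKO groups were higher than their XaKO group, with changes of 0.12 and 0.20, far under the size rule. In the Rad21 cells the Xa level was 31.2 with DMSO and 31.8 with dTAG, a change of 0.02. In the Ctcf cells it was 37.6 with DMSO and 61.8 with dTAG, a change of 0.71.

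Atp6ap2, the prorenin receptor, had the most groups with some Xi RNA, at very low shares. Its Xi level was 0.058 FPKM in WT, 0.032 in XistpA, 1.23 in XRR_KO and 0.031 in XRRa_KO. It was 0.027 in XRRb_XaKO, 0.032 in XRRb_XiKO and 0.144 in XRRc_XiKO, and it was listed at 0 in the remaining 5 groups. Atp6ap2 rose on Xi in XRR_KO, with a change of 1.64 that stood in place 27 of 270, and its share went from 0.054% to 1.98%. In all other groups its share was 0.163% or less.

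The Xa level of Atp6ap2 was 107 FPKM in WT, 88.0 in XistpA, 61.1 in XRR_KO and 110 in XRRa_KO, with XRR_KO again the lowest. The change in XRR_KO was -0.81, which did not reach the size rule. In the second table the Xa level was 91.8 in XRRb_XaKO, 90.1 in XRRb_XiKO, 76.7 in XRRc_XaKO and 87.8 in XRRc_XiKO. In the degron cells it was 32.9 and 35.9 for Rad21 with DMSO and dTAG, and 23.2 and 40.8 for Ctcf. The Ctcf cells were the groups where the order of the pair turned. There the Xa ratio of Atp6ap2 to Atp6ap1 was 0.617 with DMSO and 0.660 with dTAG, against 1.03 to 1.47 in the other 10 groups. The highest ratio, 1.47, was in XRR_KO, where Atp6ap1 was low.

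Gla, the galactosidase, was lower on the active X in XRR_KO as well. Its Xa level was 11.0 FPKM in WT, 8.93 in XistpA, 4.85 in XRR_KO and 9.52 in XRRa_KO. Gla fell by 1.11 on the log2 scale in XRR_KO, the 8th lowest of 270 changes. The median Xa change of all tested genes in that comparison was -0.19. On Xa 2 of the 5 members fell, as did 3.7% of all tested genes. Scaled to equal median Xa FPKM, the change was -1.02 for Atp6ap1 and -0.97 for Gla, so the call for Gla ended. Centred on the median Xa change, it was -0.99 for Atp6ap1 and -0.93 for Gla, so both calls ended. All of these values lie close to the size rule.

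On Xi, Gla was listed at 0 in WT and had 0.0053 FPKM in XistpA, 0.105 in XRR_KO and 0.068 in XRRa_KO. Its Xi share was 2.13% in XRR_KO and 0.710% in XRRa_KO, and in the other 8 groups outside this table it was listed at 0. The Xa level of Gla was 9.70 in XRRb_XaKO, 8.33 in XRRb_XiKO, 7.79 in XRRc_XaKO and 7.47 in XRRc_XiKO. It was 4.50 and 4.05 with DMSO and dTAG in the Rad21 cells, and 5.04 and 6.26 in the Ctcf cells. None of the Gla changes outside XRR_KO reached the size rule.

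Ids, the sulfatase, had the lowest level of the 5 in every group. Its Xa level was 1.11 FPKM in WT, 1.13 in XistpA, 2.09 in XRR_KO and 1.44 in XRRa_KO. XRR_KO was here the highest group of the table, the opposite of Atp6ap1, Atp6ap2 and Gla. The change of 0.68 stood in place 11 of 270 from the highest and did not reach the size rule. The Xa ratio of Ids to Gla was 0.101 in WT and 0.431 in XRR_KO. In the second table Ids had 1.42 in XRRb_XaKO, 0.894 in XRRb_XiKO, 1.02 in XRRc_XaKO and 0.997 in XRRc_XiKO. Ids passed the filter on low values there through XRRb_XaKO, without which its average would be under 1. Its XRRb change of -0.46 is therefore a description only. It had 1.27 and 1.64 with DMSO and dTAG in the Rad21 cells and 1.41 and 1.61 in the Ctcf cells. On Xi it was above 0 in XistpA, at 0.0019 FPKM, and in Rad21_dTAG, at 0.026 FPKM, shares of 0.171% and 1.54% of a low total.

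Outside the calls named above, no member reached the size rule in any comparison. In XistpA the Xa changes of the 5 had a median of -0.15, against -0.02 over all tested genes, where 1.11% rose and 3.33% fell on Xa and 1.48% fell on Xi. In XRR_KO the member median on Xa was -0.81, and 1.11% of all tested genes fell on Xi. In XRRa_KO the member median on Xa was 0.04 against 0.02 for all genes. There 5.93% of tested genes rose and 1.11% fell on Xi, and 0.37% rose and 0.37% fell on Xa. On Xi, 4 of the 5 members were already listed at 0 in WT and could not fall. Atp6ap2, at 0.058 FPKM in WT, was too near 0 to fall by the size rule. In the other comparisons the members' Xi level in the control was at most 0.027 FPKM. No fall of a member on Xi could therefore be called in any comparison.

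Between XRRb_XiKO and XRRb_XaKO, 1.92% of tested genes rose and 0% fell on Xi, and 0.766% rose and 2.3% fell on Xa. Between XRRc_XiKO and XRRc_XaKO, 0.766% rose and 1.53% fell on Xi, and 1.15% rose and 1.15% fell on Xa. The members' Xa medians were -0.09 and 0.19, against -0.09 and -0.05 for all genes. With equal median Xa FPKM the sign of the XRRb changes of Lamp2 and Atp6ap2 turned, from -0.09 to 0.05 and from -0.03 to 0.12, and those of Gla and Ids in XRRc turned, from -0.06 to 0.01 and from -0.03 to 0.02.

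The degron comparisons differed in how the background moved. With dTAG, 6.48% of tested genes rose and 15% fell on Xa in the Rad21 cells, and 4.05% rose and 3.24% fell on Xi. In the Ctcf cells 5.42% rose and 0.722% fell on Xa, and 0.361% rose and 0.361% fell on Xi. The members' median Xa change was 0.12 in the Rad21 cells, against -0.26 over all tested genes, and 0.71 in the Ctcf cells, against 0.23. In the Ctcf cells all 5 changes were above 0 and ran from 0.14 for Ids to 0.92 for Lamp2. The Ids change stood in place 172 of 277 from the highest, so most tested genes were above 0 as well. With equal median Xa FPKM the Ids change there turned to -0.06, and the Gla change in the Rad21 cells turned from -0.13 to 0.24.

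On Xa, Lamp2 and the proton pump genes had changes of the same sign in XRR_KO and in both degron lines, but of different size. The Xa ratio of Lamp2 to Atp6ap1 was 0.468 in WT and 0.878 in XRR_KO, 0.595 with DMSO and 1.13 with dTAG in the Rad21 cells, and 0.504 and 0.589 in the Ctcf cells. In XRR_KO the level of Atp6ap1 was the term that differed most from WT, and in the Rad21 cells it was that of Lamp2. A ratio of genes within a column does not depend on how the column was scaled.

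The neighbours of the members along the X were taken from the RefSeq gene order, which placed 999 of the 1006 listed genes. Counted from the centromeric end, Atp6ap2 was in place 114, Lamp2 in place 252, Ids in place 415, Atp6ap1 in place 492 and Gla in place 754. Xist was in place 655, so Gla alone lay distal of it. For each gene the 3 nearest genes on either side that were tested in at least 1 table were set beside it.

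The second and the third tested gene ahead of Lamp2 had high Xi shares in all groups. Nkap, a regulator of transcription and splicing, had an Xi share of 35.9% in WT, 48.2% in XistpA and 46.7% in XRR_KO. Ndufa1, a subunit of respiratory complex I, had 33.4%, 48.2% and 44.3%. Between this pair and Lamp2 lay Zbtb33, which encodes the zinc finger protein Kaiso and had an Xi level of 0 throughout the 12 groups. On the other side Cul4b, a scaffold of ubiquitin ligases, reached a share of 0.188%, Mcts1, a translation factor gene, reached 0.074%, and C1galt1c1, a chaperone of glycosylation, reached 1.37%. In XRR_KO, beside the 13.5% of Lamp2, the nearest tested gene had 0 on the Zbtb33 side and 0.188% on the Cul4b side.

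Near Gla, the share in XRR_KO was above 0 for several genes. Hnrnph2, an RNA-binding protein gene that shares the printed stretch with Gla, was listed at 0 on Xi in WT and had an Xi share of 2.48% in XRR_KO, beside 2.13% for Gla. Rpl36a, a ribosomal protein gene, had 0.0076% in WT, 7.39% in XRR_KO and 1.48% in XRRa_KO. Ribosomal protein genes have processed copies elsewhere in the genome, and whether reads of such copies entered these values was not tested. Around Atp6ap2, 1810030O07Rik had a share of 25.6% in WT, 51.8% in XistpA and 51.0% in XRR_KO, and Usp9x, a deubiquitinase, had 2.16% in XRR_KO.

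Most of the remaining neighbours had low shares or low levels. Near Gla, Timm8a1 reached 0.109%, Armcx1 reached 1.68% in XRR_KO, and Armcx4 reached 11.1% in the Rad21 table, where it failed the filter on low values. Drp2, a dystrophin-related gene, had an Xi share of 5.19% in WT, 11.5% in XistpA, 10.1% in XRR_KO and 12.2% in XRRa_KO, at 0.388 FPKM or less on Xi in these 4 groups. It reached 23.1% in the Rad21 table, where it failed the filter. Near Atp6ap2, Tspan7 and Bcor had an Xi level of 0 in every group, Med14 reached 2.65%, and Mid1ip1 reached 11.1% in Rad21_dTAG, at 0.426 FPKM on Xi. Near Atp6ap1, Rpl10 reached 0.035%, Dnase1l1 0.833%, Fam50a 0.347% and Lage3 0.108%, and Taz had an Xi level of 0 in every group. These neighbours of Atp6ap1 were close to silent on Xi in all groups. Near Ids, Fmr1 reached 0.636%, Mamld1 0.534%, 4933402E13Rik 1.91% and 1110012L19Rik 2.33%, and Mtmr1 had an Xi level of 0 in every group. Aff2, the nearest gene ahead of Ids, reached 20.4% in XRR_KO, at 0.261 FPKM on Xi in a table where it failed the filter.

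**Figure D4:**
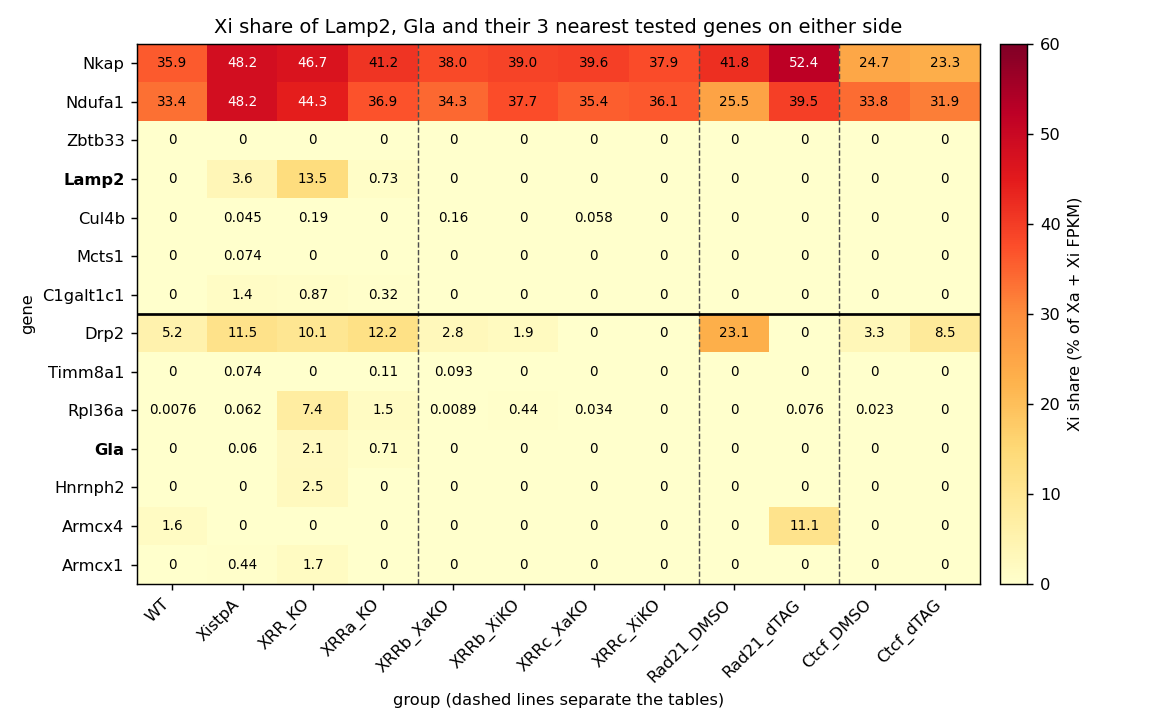
Xi share in percent of Xa plus Xi FPKM for Lamp2 and Gla (bold) and their 3 nearest tested genes on either side, in gene order, across the 12 groups, with the value in each field. A black line separates the surroundings of both genes and dashed lines separate tables. Nkap and Ndufa1 are high in every column, while Lamp2 is at 13.5% and Gla at 2.13% in XRR_KO.

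Only Lamp2 had an Xi share of 10% or more in any group, so the genes most like it were looked up by Pearson's r of the Xi share over the 12 groups. Of 233 genes tested in every table, 61 reached a share of 10% in some group and were compared. The most alike were Zdhhc9, a palmitoyltransferase subunit, with r = 0.994, Vbp1, a prefoldin subunit, with r = 0.994, and Rp2h, whose human counterpart is mutated in retinitis pigmentosa, with r = 0.994. Without XRR_KO, the values over 11 groups were 0.980, 0.993 and 0.980. Their Xi shares in XRR_KO were 24.1% for Zdhhc9, 37.0% for Vbp1 and 24.9% for Rp2h, and in XistpA 4.06%, 14.1% and 3.99%. Zdhhc9 and Rp2h were above 0 on Xi only in XRR_KO and XistpA. Without XRR_KO their r rests on XistpA alone and is set by the shares of Lamp2, so it is no check of likeness. These correlations are a description. They rest on the few groups where Lamp2 was above 0, and the points of a column share their libraries.

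A list of 22 other X-linked genes of the endosome, lysosome and autophagy pathways was set beside the 5. Of these, 20 were listed in the tables of the WT, XRRb and Rad21 groups and 22 in the Ctcf table, and 16, 15, 15 and 17 were tested. The WT Xi share was highest for Clcn5, an endosomal chloride and proton exchanger, at 51.0%. Next was Wdr45, an autophagy protein, at 40.5%. Vma21, which helps to assemble the V-ATPase and so works nearest to Atp6ap1 and Atp6ap2, had an Xi level of 0 throughout the 12 groups.

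On Xi, 2 of 16 tested list genes rose and 1 fell in XistpA, where 12.2% and 1.48% of all tested genes did. In XRR_KO 3 rose and 0 fell, against 15.9% and 1.11% of all, and in XRRa_KO 2 rose and 1 fell, against 5.93% and 1.11%. In XistpA and XRR_KO the share that rose was close to that of all tested genes. The count in XRRa_KO rests on 2 genes without replicates. None of these counts is a result about the list. Fundc1, a receptor for the autophagy of mitochondria, rose from 0.019 FPKM in WT to 9.06 in XistpA and 3.03 in XRR_KO. Atg4a, a protease that processes autophagy proteins, rose from a listed 0 to 3.46 in XistpA, 3.14 in XRR_KO and 1.05 in XRRa_KO. Rragb, a GTPase of nutrient signalling at the lysosome, rose from a listed 0 to 2.25 in XRR_KO, a share of 70.6%, while its Xa level there was 0.940. Rragb passed the filter on low values through XRR_KO, where its Xa plus Xi level was 3.19 FPKM, against 0.816 in WT, 0.855 in XistpA and 0.883 in XRRa_KO. Its rise is therefore a description only, and without Rragb the count in XRR_KO was 2 of 15. Chm, a Rab escort protein, rose from 0.307 to 1.45 in XRRa_KO. Ccdc22, a subunit of an endosomal sorting complex, fell from 2.39 to 0.743 in XistpA and to 0.781 in XRRa_KO.

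In XRRb 0 of 15 list genes rose and 0 fell on Xi, against 1.92% and 0% of all tested genes. In XRRc 1 rose and 1 fell, against 0.766% and 1.53%, and with dTAG in the Rad21 cells 1 rose and 1 fell, against 4.05% and 3.24%. In the Ctcf cells 0 of 17 rose and 0 fell on Xi, against 0.361% and 0.361%. Counts of 0 or 1 gene are no result about the list either. The gene that rose in XRRc was Gripap1, an endosomal protein, listed at 0 in XRRc_XaKO and at 0.605 FPKM in XRRc_XiKO. The gene that fell there was Ccdc22, from 7.55 to 2.34. In the Rad21 cells Wdr45 rose from 6.11 to 15.2 on Xi, and Ccdc22 was listed at 0 on both alleles with dTAG.

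On Xa, none of the list genes passed the size rule in the comparisons with WT or in XRRb and XRRc. In the Rad21 cells 2 of 15 fell, where 15% of all tested genes did, Gripap1 from 2.70 to 0.752 and Ccdc22 from 7.20 to a listed 0. In the Ctcf cells Ocrl, a phosphoinositide phosphatase, fell from 1.73 to 0.573. The list's median Xa change in XRR_KO was -0.14 and that of the 5 members -0.81. In the Ctcf cells these medians were 0.19 and 0.71.

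**Figure D5:**
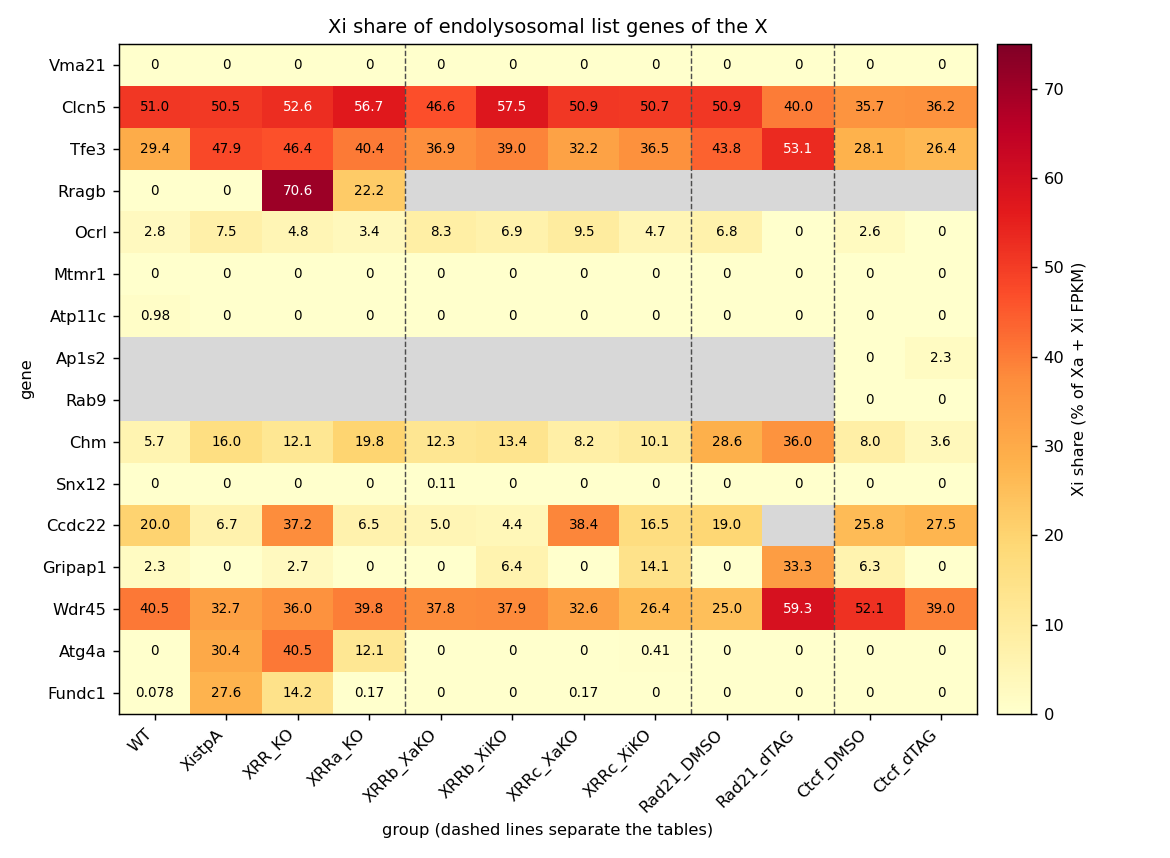
Xi share in percent of Xa plus Xi FPKM for list genes tested in at least 1 table, in the 12 groups, with the value in each field. Grey fields mark genes not tested or not listed in a table or listed at 0 on both alleles, and dashed lines separate tables. Clcn5, Tfe3 and Wdr45 lie between 25.0% and 59.3% in every column, and Atg4a stands at 30.4% in XistpA and 40.5% in XRR_KO.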

How the data were processed

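RNA from 32 samples of mouse XEN cells was captured with oligo-dT and made into Smart-seq2 libraries, per the labels' protocols. Tools named, with no role, in the submitters' processing notes are StringTie 2.1.1, HISAT2 2.2.0 and Trim Galore 0.6.4, and the build named is mm9. No source used here describes the assignment of reads to Xa or Xi. Per the file headers, the 4 deposited tables hold FPKM in 24 columns, each merging a group's samples. Read depth is therefore unknown, and no interval or test was computed. The Ctcf table names only the treatment and was matched to its samples by elimination.

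A gene was tested where its mean of Xa plus Xi FPKM in a table was at least 1 (270, 261, 247 and 277 genes). Changes were differences of log2(FPKM + 0.5), and 1 was the size rule. Named genes were the 5 members, Xist, list genes past the size rule and the 3 with the highest WT Xi share, the 3 genes most like Lamp2, and neighbours. The members and lists were chosen with earlier results of these data known. Some genes that this rule names are not reported here. Alternatives were columns scaled to equal median Xa FPKM, centred changes, pseudocounts of 0.1 and 1, a filter of 5 FPKM or none, and share rules of 5% and 20%.

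Gene order and promoters came from RefSeq for GRCm38.p6, another build than the authors'. Alignment of GENCODE M21 transcripts with minimap2 2.31 found no other gene's transcript with 95% identity over 50% of the length of any member, and no other gene's exon overlapped one. Scripts ran in Python 3.11.15 with numpy 2.4.6, pandas 2.3.3 and matplotlib 3.10.9, and were tested on simulated data.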

Additional observations from a re-analysis of the deposited data

How the results depend on the processing

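Of 280 changes of single members recomputed under the alternatives, 270 stayed on the same side of the size rule, 3 no longer reached it and 7 newly reached it. In 10 of the 270 the sign turned, all on Xa at equal median Xa FPKM or centred, and none of these reached the size rule. Their size in the reported values was at most 0.14. With a pseudocount of 0.1 the members past the size rule on Xi were 4 in XRR_KO, 2 in XRRa_KO and 1 in XRRc. Of all tested genes, 27.8%, 14.4% and 7.28% passed it on Xi at that setting. A smaller pseudocount enlarges changes of low values by construction. At equal median Xa FPKM the members past the rule on Xa were 1 in XRR_KO and 1 in the Rad21 cells. Centred on the median Xa change, an alternative chosen after seeing the data, they were 0 and 1. With the reported setting they were 2 and 0, where 4.81% and 21.5% of all tested genes passed on Xa. With a share rule of 20% no pair of a member and a group passed (0), and with 5% or 10% there was 1. A filter of 5 FPKM left out Ids in every comparison and Gla in the Rad21 cells.

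No paired analysis was possible because each column merges a group's samples, and for the same reason no sample was left out. The spread between samples and clones, and the depth behind Xi values near 0, limit every difference given here.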
